A study of Mus musculus with 2 samples.

Results

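The 9 genes described here encode proteins of the central nervous system myelin sheath, and they were followed in single nuclei of the mouse dorsal CA1, an area of the hippocampus. They are Mbp, Mobp, Mog, Mag, Mal, Cldn11, Tspan2, Opalin and Cnp, chosen by symbol as 9 of the 30431 genes in the files, and all 9 had UMIs (unique molecular identifiers, each counting 1 captured RNA molecule) in both libraries. There was 1 epilepsy library and 1 control library, each of single-nucleus RNA counts. The epilepsy library came from male C57BL/6J mice, Calb1::Cre crossed to a Tdtomato reporter, given kainate at 5 mg/kg every hour from an age of 6 to 7 weeks until status epilepticus, then diazepam at 4 mg/kg, and taken 12 weeks later in the chronic phase. The control library came from males of the same strain, alleles and age that were given saline or DMSO in place of kainate. Both groups therefore carry Cre under the control of Calb1, a gene of a subset of CA1 neurons, and the reporter was not used here. According to the labels there were 2 mice in each condition, and how many of them went into a library is not given. With 1 library per condition there was no replicate and no test: every interval below is a 95% interval that covers counting error only, and differences describe these libraries rather than the conditions.

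Oligodendrocytes wrap axons in layers of membrane whose inner faces are drawn together by basic proteins such as the Mbp product, while adhesion, junction and tetraspan proteins hold the sheath to the axon and seal its edges. Most myelin genes are switched on together as a precursor becomes a myelinating cell, under the transcription factors SOX10 and MYRF. Mbp is a special case among them, since its mRNA is carried out along the processes and translated beside the sheath, and since its locus also makes golli transcripts that neurons can express and that gene counts do not separate.

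Promoters of 4 members are shown because the members share a class of nuclei and many myelin genes are known targets of these factors. They are the RefSeq sequences upstream of the start in GRCm38.p6, 5′ to 3′ on the gene's strand, cut back where the GENCODE gene begins. Capitals mark ACAAAG, a SOX-type hexamer, or CTGGCAC, a MYRF-type heptamer, on either strand. The Mobp sequence spans chr9:120149492-120149706 on the plus strand, the Mag sequence chr7:30914874-30915113 on the minus strand, the Cnp sequence chr11:100574689-100574903 on the plus strand and the Cldn11 sequence chr3:31149670-31149919 on the plus strand.
Mobp: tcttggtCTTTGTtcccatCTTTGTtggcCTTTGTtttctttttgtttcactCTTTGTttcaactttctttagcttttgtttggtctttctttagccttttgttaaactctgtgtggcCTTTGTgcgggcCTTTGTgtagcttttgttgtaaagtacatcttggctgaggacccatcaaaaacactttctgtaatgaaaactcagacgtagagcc
Mag: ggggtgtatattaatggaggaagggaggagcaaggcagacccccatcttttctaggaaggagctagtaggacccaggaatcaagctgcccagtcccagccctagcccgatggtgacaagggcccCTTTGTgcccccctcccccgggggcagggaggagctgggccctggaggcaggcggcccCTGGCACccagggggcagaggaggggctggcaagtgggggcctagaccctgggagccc
Cnp: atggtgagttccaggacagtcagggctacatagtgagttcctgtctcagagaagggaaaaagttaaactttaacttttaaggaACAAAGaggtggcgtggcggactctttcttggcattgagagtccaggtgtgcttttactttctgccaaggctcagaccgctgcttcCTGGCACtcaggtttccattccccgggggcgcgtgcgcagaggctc
Cldn11: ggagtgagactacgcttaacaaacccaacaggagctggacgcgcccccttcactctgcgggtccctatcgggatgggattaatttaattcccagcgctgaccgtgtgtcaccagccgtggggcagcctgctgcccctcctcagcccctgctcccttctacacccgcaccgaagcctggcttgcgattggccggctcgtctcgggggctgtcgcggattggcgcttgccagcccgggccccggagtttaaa
The search covered all 250 bases before each RefSeq start, also where fewer are printed, and for Tspan2 241 of them lie inside the GENCODE gene. ACAAAG or its reverse complement was present in 4 of the 8 members searched (Mobp, Mag, Opalin and Cnp), against 4447 of 27025 mouse promoters, or 16.5%. The Mobp window held it 6 times without overlap, and 1 of the 27025 promoters, Mobp's own, held as many. CTGGCAC was present in 2 of 8 (Mag and Cnp), against 4.14% of promoters, CTGGTAC in 1 of 8 (Mog), against 1.80%, and ACAAT in 0 of 8, against 28.3%. No searched letters occurred in the 250-base windows of Cldn11, Tspan2 and Mal. These matches describe letters and not sites, and the Mbp promoter was not searched.

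In GRCm38 the members lie apart on 8 chromosomes. Mbp spans chr18:82475146-82585637, Mobp chr9:120149707-120181484, Mog chr17:37010743-37023398, Mag chr7:30899176-30914873 and Mal chr2:127633226-127656695. Cldn11 (chr3:31149920-31164324) and Tspan2 (chr3:102734529-102801513) share chromosome 3, Opalin spans chr19:41061710-41077113 and Cnp chr11:100574904-100591729. Mog, Mag, Mal and Opalin are on the minus strand, and the other 5 are on the plus strand.

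The epilepsy library held 3078 nuclei and 7112131 UMIs, with a median of 2443 UMIs per nucleus, and the control library 3661 nuclei and 11858162 UMIs, with a median of 3447. Each library stopped sharply at its own lowest UMI count, 527 in the epilepsy library and 704 in the control library. Nuclei were clustered without the 9 members and classes were named from marker genes that included none of them. The cluster with oligodendrocyte markers held 2 kinds of nuclei. One kind, called oligodendrocyte-like below, had 260 nuclei in the epilepsy library and 169 in the control library, with median UMIs of 593 and 790. It had UMIs of 11 of 12 oligodendrocyte markers, the exception being Trf, which was at 0 UMIs in every nucleus, and CA1 pyramidal markers summed to 744 CPM (UMIs per 1000000 UMIs of the class) in the epilepsy library and 528 CPM in the control library. The other kind, 51 epilepsy and 58 control nuclei with median UMIs of 2775 and 3775, held the pyramidal markers at 2666 and 2757 CPM, against 3125 and 2983 CPM in pyramidal-like nuclei. It is called mixed below and was kept apart, by a rule set after these values were seen. The libraries shared 16 barcodes, none with the same counts in both.

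Members made up 9667 CPM of the RNA of oligodendrocyte-like nuclei in the epilepsy library (1572 UMIs, 9195 to 10157) and 10551 CPM in the control library (1519 UMIs, 10027 to 11095). The log2 ratio of epilepsy to control for the summed members was -0.13 (-0.23 to -0.02). The single members did not share a direction: Cldn11, Tspan2 and Mobp were higher in the epilepsy library and Mbp lower beyond counting error, while the intervals of Mog, Mag, Mal and Opalin included 0. Over the 1049 genes with at least 50 UMIs in this class the median log2 ratio was 0.02, and over the 8 members that reached this minimum it was -0.09.

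**Figure D1:**
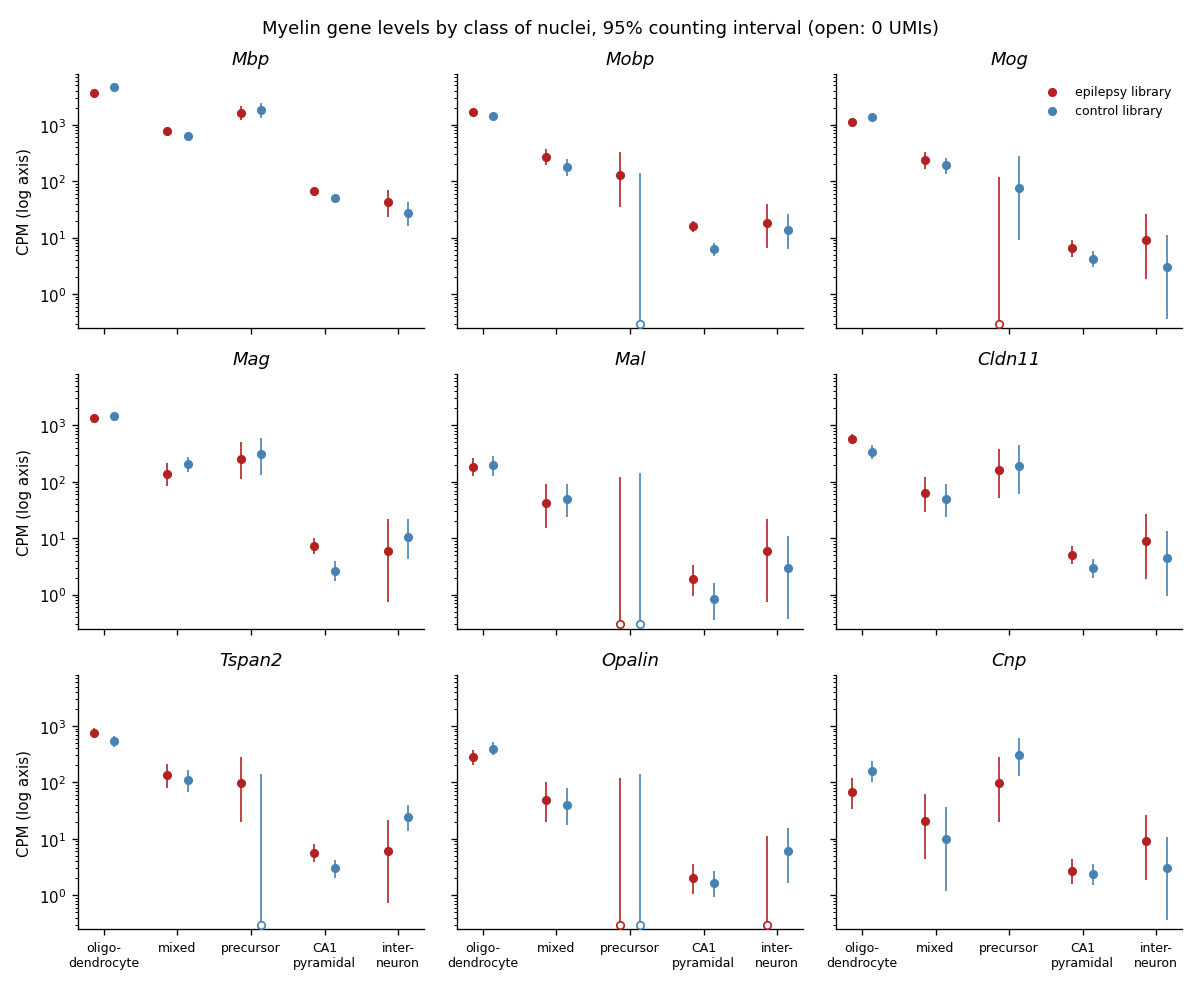
Level of each myelin gene in CPM (y axis, log scale) in 5 classes of nuclei (x axis), with the epilepsy library in red left of the control library in blue. Points are summed counts per class and library, vertical lines are 95% counting intervals, and open points at the lower edge are 0 UMIs. Every member was highest in oligodendrocyte-like nuclei except Cnp in both libraries, and Mal and Opalin had 0 UMIs in both precursor groups. The Cnp exception rests on 3 epilepsy and 8 control UMIs in precursors, with intervals that overlapped those of oligodendrocyte-like nuclei.

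Among the proteins of compact myelin, Mbp, the basic protein that joins the cytoplasmic faces of the membrane, had a level of 3622 CPM in epilepsy oligodendrocyte-like nuclei (589 UMIs) and 4695 CPM in control ones (676 UMIs). Its log2 ratio was -0.37 (-0.54 to -0.21), and the intervals of the levels, 3335 to 3927 and 4348 to 5063 CPM, did not overlap. Mobp, a smaller basic protein of the same compartment, went the other way, with 1703 CPM in the epilepsy library (277 UMIs) and 1410 CPM in the control library (203 UMIs), a log2 ratio of 0.27 (0.01 to 0.54). Mal, a raft-associated proteolipid of membrane sorting, had 184 and 194 CPM in the epilepsy and control libraries from 30 and 28 UMIs, and its log2 ratio of -0.08 had an interval from -0.87 to 0.72.

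Cldn11 is the claudin of the tight junctions between myelin layers, and it was the member with the highest ratio. Its level was 584 CPM in the epilepsy library (95 UMIs, 473 to 714) and 340 CPM in the control library (49 UMIs, 252 to 450). The log2 ratio was 0.78 (0.27 to 1.31), which is 1.72-fold (1.20 to 2.48), and 96.5% of the genes tested in the class had a lower ratio. Tspan2, a tetraspanin of oligodendrocytes, had 763 CPM in the epilepsy library (124 UMIs) and 542 CPM in the control library (78 UMIs), a log2 ratio of 0.49 (0.07 to 0.92). Opalin, a transmembrane glycoprotein of mature oligodendrocytes, had 283 and 396 CPM in the epilepsy and control libraries (46 and 57 UMIs), and the interval of its log2 ratio of -0.49 ran from -1.08 to 0.10.

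Mog, an immunoglobulin-like protein of the outermost myelin surface, had 1125 CPM in the epilepsy library and 1375 CPM in the control library (183 and 198 UMIs), a log2 ratio of -0.29 (-0.59 to 0.01). Mag, the lectin that faces the axon at the innermost layer, had 1334 and 1438 CPM (217 and 207 UMIs), with a log2 ratio of -0.11 (-0.39 to 0.17). Cnp, the cyclic nucleotide phosphodiesterase of non-compact myelin, had only 11 UMIs in the epilepsy library and 23 in the control library, or 67.6 and 160 CPM. Its log2 ratio of -1.24 (-2.42 to -0.15) rests on 34 UMIs, under the minimum of 50, and Cnp was left out of the counts below.

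Of the 8 members tested in oligodendrocyte-like nuclei, 1 (Cldn11) was past 1.5-fold higher in the epilepsy library and 0 were past 1.5-fold lower. Among all 1049 genes of the class, 14.2% were past 1.5-fold in either direction, 7.15% higher and 7.05% lower, so 1 of 8 is near that background. Counting intervals lay above 0 for 3 of the 8 members, against 8.01% of the genes of the class, and below 0 for 1, against 7.82%. The mixed nuclei held all 9 members at lower levels, 1729 CPM in the epilepsy library and 1464 CPM in the control library for the sum, a log2 ratio of 0.24 (-0.01 to 0.49). There 1 of 4 tested members, Mobp, was past 1.5-fold higher with an interval that included 0, against a background of 13.0% of genes, 6.10% higher and 6.89% lower.

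**Figure D2:**
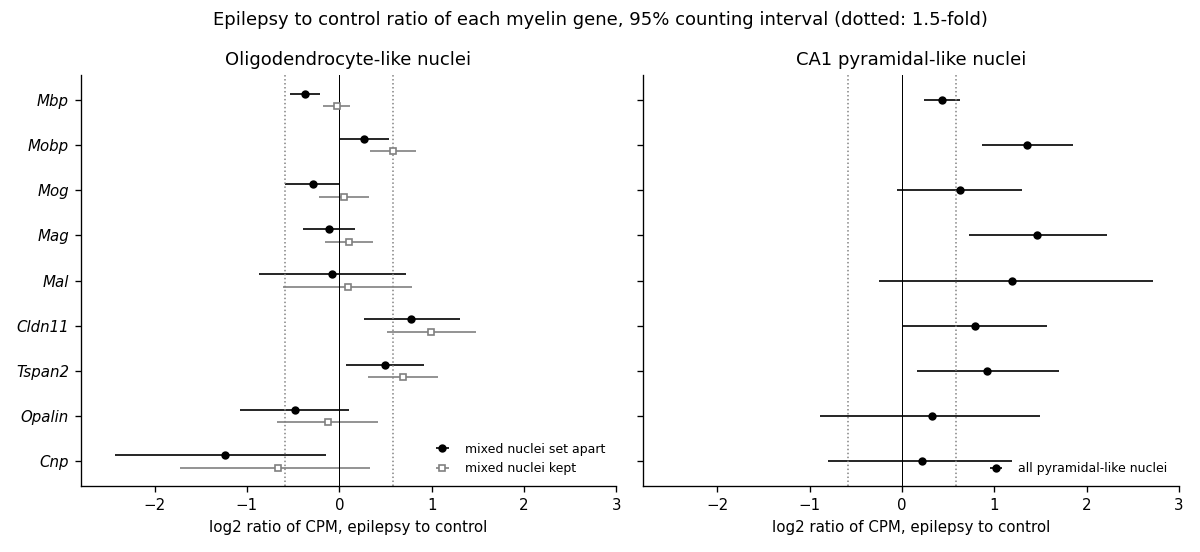
Log2 ratio of epilepsy to control for each myelin gene (x axis) in oligodendrocyte-like nuclei (left) and in CA1 pyramidal-like nuclei (right). Points are ratios of summed CPM, lines are 95% counting intervals, open squares keep the mixed nuclei in the class, and dotted lines mark 1.5-fold. With the mixed nuclei set apart, Mbp lay at -0.37 and Cldn11 at 0.78. All 9 pyramidal ratios lay above 0, but the intervals of Mog, Mal, Opalin and Cnp included 0. Mal, Opalin and Cnp had 19, 28 and 39 UMIs there, under the minimum of 50.

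Which nuclei entered the class moved several members. With the mixed nuclei kept, the log2 ratio of the summed members was 0.18 (0.08 to 0.27), Mbp was at -0.03, Mog at 0.05 and Mobp at 0.58. There 2 of 8 tested members were past 1.5-fold, and the share of all genes under this setting is not given here. Of the oligodendrocyte-like nuclei, 243 of 260 in the epilepsy library (93.5%) and 155 of 169 in the control library (91.7%) had under 1.5 times their library's lowest UMI count, against 3.03% and 3.84% of pyramidal-like nuclei. Holding both libraries to the same lowest count of 704 UMIs set the 37 deepest of 260 epilepsy nuclei beside all 169 control nuclei. The summed members then had a log2 ratio of 0.18 (0.01 to 0.35), Mbp -0.07 and Mobp 1.07 (0.70 to 1.43). Across 10 alternatives the sign held in 10 for Cldn11 (0.59 to 0.99), Tspan2 (0.27 to 0.69), Mobp, Mbp and Cnp, in 9 for Mog, Mag and Opalin and in 8 for Mal. Of these 10, the 2 other clustering resolutions gave the same nuclei and so the same values. The interval of Cldn11 included 0 with at least 500 detected genes (-0.04 to 1.58), with thinning (-0.03 to 1.25) and with the same lowest UMI count (-0.0025 to 1.64), and that of Tspan2 under the same 3. For Mbp the interval included 0 with at least 500 genes, with the same lowest UMI count and with mixed nuclei kept, and for Mobp with thinning and with the members kept among the clustering genes.

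**Figure D3:**
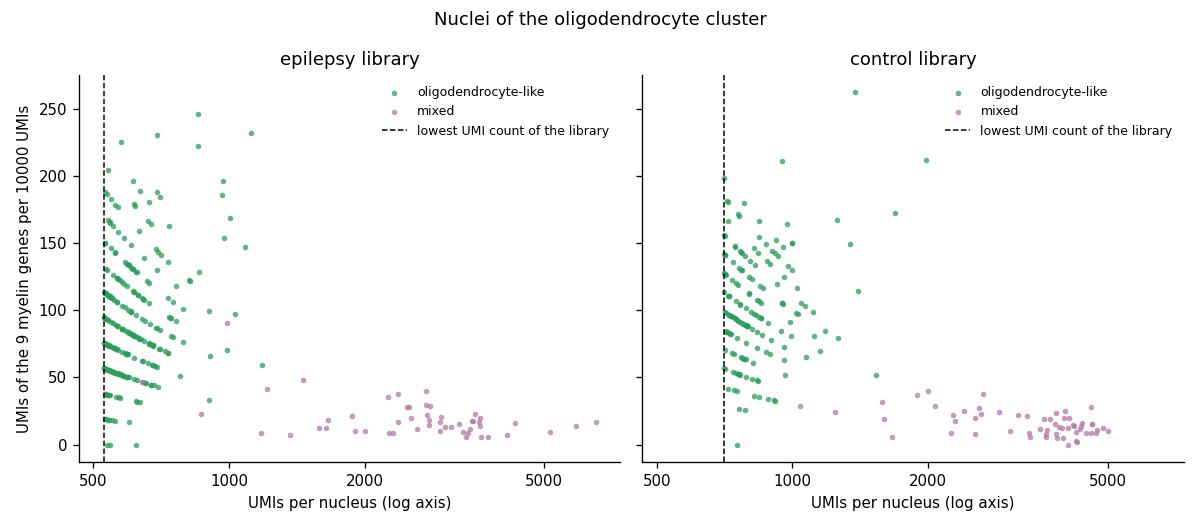
Nuclei of the oligodendrocyte cluster in the epilepsy library (left) and the control library (right), with total UMIs per nucleus on a log x axis and UMIs of the 9 myelin genes per 10000 UMIs on the y axis. Each point is 1 nucleus, and the dashed line is the library's lowest UMI count. Oligodendrocyte-like nuclei (green) stand against that line with medians of 86.2 and 98.0, and mixed nuclei (purple) lie to the right with medians of 16.7 and 14.3.

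Single oligodendrocyte-like nuclei held 0 to 26 member UMIs in the epilepsy library, with a median of 5, and 0 to 42 in the control library, with a median of 8. Only 3 epilepsy nuclei and 1 control nucleus had none. A median nucleus showed 3 of the 9 members in the epilepsy library and 4 in the control library, and no nucleus showed all 9, the highest being 7 and 8. Divided into 3 bins of equal size by UMI count, the epilepsy nuclei had member levels of 8650, 9436 and 10607 CPM from the shallowest to the deepest bin, and the control nuclei 10273, 9639 and 11457 CPM. Mobp rose with the UMI count in both libraries, at 1187, 1450 and 2291 CPM in the epilepsy library and 1179, 1431 and 1560 CPM in the control library. Cldn11 was higher in the epilepsy library in each bin, with 466, 696 and 581 CPM, against 313, 335 and 364 CPM in the control library.

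Mbp was detected in 84.2% of epilepsy and 96.4% of control oligodendrocyte-like nuclei, and in 14.9% and 15.1% of pyramidal-like nuclei, whose median UMIs were 2567 and 3574.5. With every nucleus thinned to 500 UMIs, which left out no oligodendrocyte-like nucleus, the Mbp shares were 79.2% (73.8 to 84.0) in the epilepsy library and 91.1% (85.8 to 94.9) in the control library. Pyramidal-like nuclei thinned in the same way showed Mbp in 4.27% and 2.64%. The thinned share of Mog was 40.8% in the epilepsy library (34.7 to 47.0) and 52.1% in the control library (44.3 to 59.8). Cldn11 was detected in 27.3% of epilepsy and 24.3% of control nuclei before thinning, and in 23.1% (18.1 to 28.7) and 16.0% (10.8 to 22.4) after it. Tspan2 was detected in 33.5% and 32.5% before and in 30.0% and 21.3% after. For Mobp, Mag, Mal, Opalin and Cnp the intervals of the thinned shares overlapped between the libraries, as they did for Mog, Cldn11 and Tspan2.

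The precursor-like cluster held few nuclei, 38 in the epilepsy library and 24 in the control library, which is under 30. Summed members stood at 2359 CPM in the epilepsy library (73 UMIs, 1849 to 2966) and 2673 CPM in the control library (70 UMIs, 2084 to 3377). Most of the nuclei had none: 25 of 38 and 16 of 24 were at 0, and 1 control nucleus alone had 43 of the 70 control UMIs. Mbp gave 50 of 73 member UMIs in the epilepsy library (68.5%) and 47 of 70 in the control library (67.1%), against 37.5% and 44.5% in oligodendrocyte-like nuclei. Opalin and Mal had 0 UMIs in the class in both libraries, with intervals up to 119 CPM in the epilepsy library and 141 CPM in the control library. Mog had 0 and 2 UMIs, Mobp 4 and 0, and Tspan2 3 and 0 in the epilepsy and control libraries, while Mag had 8 and 8 and Cldn11 5 and 5.

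Within the cluster, markers of committed precursors (Bcas1, Enpp6, Gpr17, Tcf7l2, Tnr) outnumbered precursor markers (Pdgfra, Cspg4, Lhfpl3, Cacng4, Vcan, Neu4) in 11 epilepsy and 14 control nuclei. These nuclei held members at 5528 CPM in the epilepsy library (4228 to 7101) and 3852 CPM in the control library (2973 to 4910). Without the highest nucleus of each, the levels were 4661 and 1500 CPM. In the other 27 epilepsy and 10 control nuclei members stood at 603 CPM (311 to 1053) and 537 CPM (174 to 1253), below the level in the nuclei led by committed markers. Detection did not follow in the control library, where 10 of the 14 committed-led nuclei and 6 of the other 10 had 0 member UMIs, against 2 of 11 and 23 of 27 in the epilepsy library. The split was made after the cluster was seen to hold both marker sets. In this cluster the highest of the 5 committed markers gave 6785 of their 10404 CPM in the epilepsy library. In the control library it gave 7676 of 11380 CPM, so the division rests largely on 1 gene in each library. Pyramidal-like nuclei held 1 committed marker, Tnr, at 726 CPM (epilepsy) and 614 CPM (control), so the set is not exclusive to precursors.

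**Figure D4:**
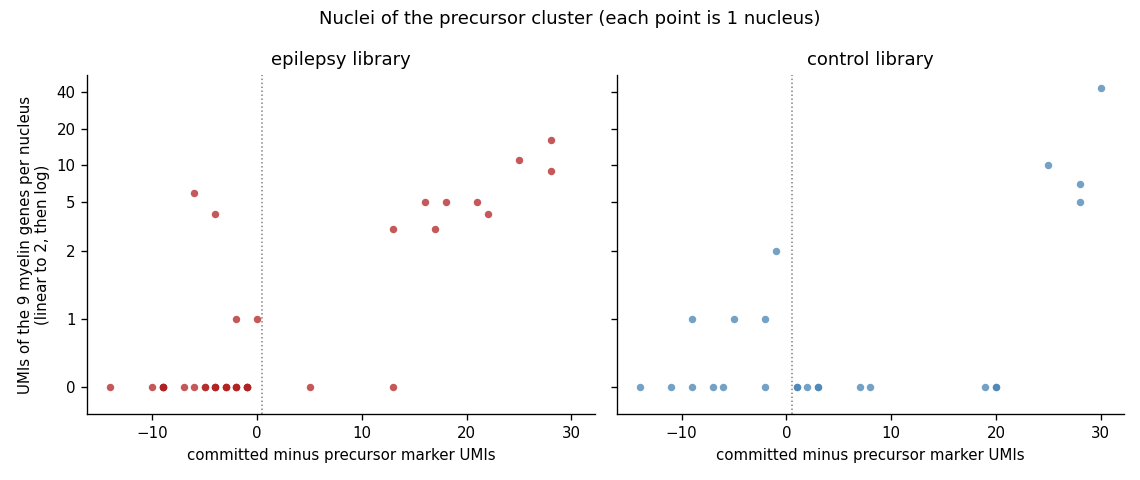
UMIs of the 9 myelin genes in each nucleus of the precursor-like cluster (y axis, linear to 2 and then logarithmic) against the UMIs of committed-precursor markers minus those of precursor markers (x axis). The epilepsy library is on the left and the control library on the right, each point is 1 nucleus (some overlap), and the dotted line divides nuclei led by committed markers from the rest. In both libraries the highest nuclei, at 16 and 43 UMIs, lie at the right edge.

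Pyramidal-like nuclei are neurons, which do not make myelin, and the source of member UMIs in them, free RNA, golli transcripts of the Mbp locus or other, was not tested. Among 2340 epilepsy nuclei 77.0% had 0 member UMIs and the highest had 5, and among 2838 control nuclei 78.6% had 0 and the highest had 4. Summed members stood at 115 CPM in the epilepsy library (669 UMIs, 106 to 124) and 73.7 CPM in the control library (717 UMIs, 68.4 to 79.3). The log2 ratio was 0.64 (0.48 to 0.79), or 1.56-fold. Of 6 members tested in this class, 5 were past 1.5-fold higher in the epilepsy library and 0 lower, against a background of 13.8% of 11083 genes in either direction, 8.76% higher and 5.07% lower. The members' share stands above that background, and their median log2 ratio was 0.86, against -0.00073 over all genes. Markers of some other classes were also higher in epilepsy pyramidal-like nuclei. The 12 oligodendrocyte markers summed to 213 CPM in the epilepsy library and 131 CPM in the control library. Of these sums 1 gene, Anln, gave 111 and 59.0 CPM. Anln stood at 18.8% and 14.4% of its oligodendrocyte-like level there, so this marker was not confined to oligodendrocyte-like nuclei. The 6 interneuron markers summed to 79.9 and 52.8 CPM and the 8 microglia markers to 56.7 and 38.8 CPM, while 5 astrocyte markers summed to 35.1 and 38.0 CPM.

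Mag had the highest ratio there, with 7.37 CPM in the epilepsy library (43 UMIs) and 2.67 CPM in the control library (26 UMIs), a log2 ratio of 1.46 (0.73 to 2.22). Mobp followed, with 15.8 and 6.17 CPM (92 and 60 UMIs) and a log2 ratio of 1.35 (0.87 to 1.85). The log2 ratio was 0.92 (0.16 to 1.70) for Tspan2, 0.79 (0.00044 to 1.57) for Cldn11 and 0.63 (-0.05 to 1.30) for Mog. Mbp, with 67.5 CPM in the epilepsy library (394 UMIs) and 49.9 CPM in the control library (485 UMIs), was higher at a log2 ratio of 0.44 (0.24 to 0.63), within 1.5-fold. Beside these ratios, the epilepsy library had a larger share of oligodendrocyte-like nuclei and fewer UMIs per nucleus, and their part in the difference was not tested.

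The difference was present in each of the 5 pyramidal clusters, which are parts of the same 2 libraries and not repeats. It was widest in a cluster of low UMI counts, with medians of 998 in the epilepsy library and 1291 in the control library, where members stood at 373 CPM (297 to 463) and 113 CPM (82.1 to 152). In the other 4 clusters the epilepsy library ranged between 88.9 and 124 CPM and the control library between 65.5 and 76.3 CPM. Among these, intervals overlapped in the cluster led by Ndst4 and Col11a1 (74.6 to 105 in the epilepsy library and 56.6 to 75.4 in the control library). Without the low-UMI cluster the log2 ratio was 0.54, and with equal weight for every nucleus it was 0.81.

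Set against the oligodendrocyte-like level of the same library, the pyramidal level of the summed members was 1.19% in the epilepsy library (1.08 to 1.30) and 0.699% in the control library (0.638 to 0.764). With the mixed nuclei kept in the oligodendrocyte-like class these were 1.93% and 1.40%. The percent differed among the members. Mbp stood at 1.86% (1.64 to 2.12) in the epilepsy library and 1.06% (0.943 to 1.20) in the control library. The other 8 members together stood lower, at 0.780% (0.680 to 0.892) and 0.407% (0.351 to 0.472). Singly, Cnp stood above Mbp in both libraries, with overlapping intervals. The interval of Mal also overlapped that of Mbp in both libraries, and that of Cldn11 did so in the control library. Mbp accordingly made up 58.9% of member UMIs in epilepsy and 67.6% in control pyramidal-like nuclei, against 37.5% and 44.5% in oligodendrocyte-like nuclei. Mag was lowest, at 0.552% in the epilepsy library (0.389 to 0.769) and 0.186% in the control library (0.119 to 0.280), with Mog next at 0.579% and 0.306%. Cnp was at 4.05% and 1.48%, from 11 and 23 oligodendrocyte UMIs, with the widest intervals of the 9 (1.77 to 9.66 and 0.794 to 2.76).

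Between the libraries, the intervals of this percent were apart for Mbp, Mobp and Mag and overlapped for the other 6 members. The share of all genes with intervals apart is not given here, so this count is no result about the members. Cldn11 had the nearest values, 0.880% (0.563 to 1.34) in the epilepsy library and 0.876% (0.534 to 1.41) in the control library. Among 4 other oligodendrocyte genes measured in the same way, Prr5l stood at 0.466% in the epilepsy library and 0.211% in the control library, Fa2h, a fatty acid hydroxylase of myelin lipids, at 0.599% and 0.187%, and Aspa, which splits N-acetylaspartate, at 1.41% and 0.428%. The transcription factor gene St18 was at 0.942% (0.789 to 1.12) and 0.799% (0.692 to 0.921). Intervals of Prr5l, Fa2h and Aspa were also apart between the libraries, and those of St18 overlapped. Mbp in the epilepsy library was above the intervals of St18, Prr5l and Fa2h, and overlapped that of Aspa (0.995 to 1.97). In the control library its interval lay above those of all 4.

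**Figure D5:**
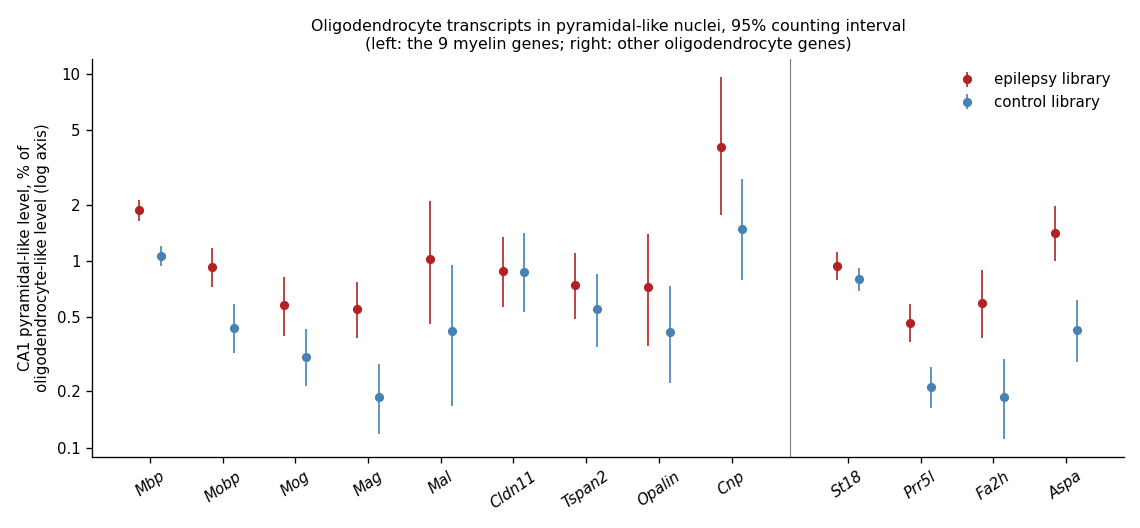
Level in CA1 pyramidal-like nuclei as a percent of the level in oligodendrocyte-like nuclei of the same library (y axis, log scale), for the 9 myelin genes and 4 other oligodendrocyte genes (x axis). Epilepsy is red and left, control blue and right, and lines are 95% counting intervals. Every gene stood higher in the epilepsy library, Cldn11 only by 0.880% against 0.876%. The Mbp point stood above those of the members other than Cnp in the control library, where its interval overlapped those of Mal, Cldn11 and Cnp.

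In interneuron-like nuclei, 143 in the epilepsy library and 198 in the control library, members summed to 106 CPM (73.8 to 147) and 95.1 CPM (73.1 to 122). Tspan2 stood highest among the members there in the control library, relative to its own oligodendrocyte-like level. It had 2 UMIs in the epilepsy library and 16 in the control library, or 6.05 and 24.2 CPM, and in the control library this was 4.46% (2.43 to 7.70) of the oligodendrocyte-like level, above the 0.550% (0.346 to 0.853) in pyramidal-like nuclei. The 16 control UMIs fell in 2 of 3 interneuron clusters, 8 in a cluster led by Tll1, Gna14, Lypd6b and Sst and 8 in one led by Adarb2, Frem1, Npas1 and Igf1, in 5 and 7 nuclei. The interneuron cluster led by B020031H02Rik and Pde11a had 0 in both libraries. Leaving out 3 control nuclei with 5 or more member UMIs, Tspan2 stood at 3.42% (1.70 to 6.32). Tspan2 in the epilepsy library was at 0.794% (0.0951 to 2.93).

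Over all kept nuclei, members summed to 392 CPM in the epilepsy library (2666 UMIs) and 242 CPM in the control library (2750 UMIs), a log2 ratio of 0.69 (0.62 to 0.77). Of the 9 members, 5 were past 1.5-fold higher (Mobp, Mag, Mal, Cldn11 and Tspan2) and 0 lower, against a background of 14.3% of 11875 genes in either direction, 9.20% higher and 5.12% lower. By class, oligodendrocyte-like nuclei gave 59.0% of member UMIs in the epilepsy library and 55.2% in the control library, pyramidal-like nuclei 25.1% and 26.1%, and mixed nuclei 9.26% and 10.7%. Oligodendrocyte-like nuclei were 8.71% (7.72 to 9.78) of epilepsy and 4.76% (4.08 to 5.51) of control nuclei. With the same lowest UMI count in both libraries the shares were 1.39% and 4.76%, and the log2 ratio over all nuclei was -0.16 (-0.25 to -0.07). This cut kept 37 of 260 epilepsy and all 169 control oligodendrocyte-like nuclei, so it set the deepest epilepsy nuclei against the whole control class. As deposited, the lowest UMI count was 21.6% of the median in the epilepsy library and 20.4% in the control library. A larger share of oligodendrocyte nuclei and a lower UMI limit cannot be told apart here.

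Other oligodendrocyte genes gave the setting for the members. Of 17 myelin-membrane genes that are not members, 5 had at least 50 UMIs in oligodendrocyte-like nuclei and 0 were past 1.5-fold, with a median log2 ratio of -0.48. Rtn4, the gene of the neurite growth inhibitor Nogo, had 793 CPM in the epilepsy library and 1125 CPM in the control library, a log2 ratio of -0.50 (-0.85 to -0.16). Of 21 genes of myelin lipids and metabolism 9 were tested, 0 were past 1.5-fold higher and 1 lower, with a median of -0.33. That gene was Scd2, a fatty acid desaturase, at -0.67 (-1.44 to 0.08), while Fa2h was at -0.40 (-0.74 to -0.06) and Aspa at -0.43 (-0.82 to -0.05). Of 16 genes of paranodes, adhesion and gap junctions 12 were tested, 0 were past 1.5-fold higher and 1 lower (Hapln2, a matrix link protein of nodes, at -0.68, -1.50 to 0.12), with a median of -0.15.

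Of 15 cytoskeleton and transport genes 9 were tested and 0 were past 1.5-fold in either direction, with a median log2 ratio of 0.19. Counting intervals lay above 0 for 5 of the 9 and below 0 for 0, against 8.01% and 7.82% of the genes of the class, among them Anln, a septin-binding scaffold, at 0.53, and Sept4, a myelin septin, at 0.37. Pacs2 at -0.38, Dock5 at -0.28 and Ank3 at -0.10 had ratios of the other sign, with intervals that included 0. Of 16 transcription factor genes 6 were tested and 0 were past 1.5-fold, with a median of 0.04. Sox10, the activator of many myelin genes, was at 0.29 from 62 epilepsy and 45 control UMIs, Zfp536 at 0.40, Myrf at 0.16 (-0.56 to 0.88) and St18 at -0.27. Of 14 stress and subtype genes 5 were tested, 0 were higher and 1 lower (the chaperone gene Cryab, at -0.82 from 23 and 36 UMIs), with a median of -0.14. Of 10 genes of newly formed oligodendrocytes 3 were tested, 0 were past 1.5-fold, and the median was -0.13. Of 6 genes of peripheral myelin, made by Schwann cells, 0 reached the minimum: Pmp2 had 0 UMIs in both libraries and Pmp22 had 2 epilepsy and 1 control UMIs in oligodendrocyte-like nuclei.

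Across 18 sums of class and library, the genes whose log2(CPM + 1) followed the mean of the members most closely among 1041 were Zdhhc20 (Pearson r 0.904), Pde4b (0.902), Sytl2 (0.897), AC110241.2 (0.896), Myrf (0.890) and Hapln2 (0.889). The sums share libraries and depths, so these coefficients are descriptions. Between libraries, Sytl2 had a log2 ratio of -0.86 (-1.41 to -0.33) in oligodendrocyte-like nuclei and Pde4b, with 10085 CPM in the epilepsy library and 9863 CPM in the control library, 0.03 (-0.07 to 0.14).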

How the data were processed

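Each of the 2 libraries is a matrix of UMI counts per gene and nucleus, raw counts as deposited by the authors. Reads were processed with Cell Ranger 2.2.0 and FastQC on GRCm38 (mm10), per the submitters' processing notes. Per the labels' protocols, CA1 was dissected, nuclei were sorted, and 15000 were loaded per sample for 10x 3' v2 libraries. Barcode selection, annotation and intron counting are not given in the sources used here. Positions came from GENCODE M21.

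Groups follow the condition label. Nuclei with at least 200 genes and under 5% mitochondrial UMIs were kept (0 removed). Scrublet's own threshold marked 4 epilepsy and 4 control nuclei (0.130% and 0.109%), so the 3% with the highest scores were removed in each library, 92 and 110 nuclei. Scaled to 10000 per nucleus, counts were put on a log scale. The 2000 genes of highest variability, members excluded, were standardised by library and reduced to 30 components. These were clustered with 20 neighbours (scanpy 1.11.5, leidenalg 0.10.2, resolution 1). Classes needed 3 markers at 20 CPM and 2-fold. The oligodendrocyte cluster was divided at resolution 0.5, and a subcluster with over 0.5 of the pyramidal marker level was called mixed. These naming thresholds and the mixed rule were set after clusters had been seen. The unnamed cluster held 12 epilepsy and 19 control nuclei.

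CPM values are UMI sums of a gene over the nuclei of a class in 1 library, per 1000000 UMIs of all genes there. Ratios carry exact conditional binomial intervals, levels exact Poisson ones and shares Clopper-Pearson ones (95%, scipy 1.17.1). UMIs from 1 nucleus are not independent, so intervals are too narrow. A gene with at least 50 UMIs over both libraries was tested against 1.5-fold, which is a count of size with no p-value. The upper end for a count of 0 comes from the same exact Poisson interval. Independent Poisson counts were simulated with known ratios, from the gene profile of all nuclei and the UMI totals of each class. The interval held the true ratio for 95.4% of 958 genes with oligodendrocyte-like totals and 95.8% of 11454 genes with pyramidal-like totals. Such counts follow the interval's own assumption, so this checks its computation and not its coverage of real UMIs. Members and gene lists were chosen with earlier results of these data known. All 9 members are named, and of each list up to 4 genes from each end of the ratios, ordered by the bound of the interval that is closer to 0. Some genes this rule names are not reported here. Alternatives were TMM factors (edgeR 4.0.16), equal weight per nucleus, thinning to 500 UMIs, other filters and other clusterings.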

Additional observations from a re-analysis of the deposited data

Results flagged for a closer look

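Member UMIs in microglia-like nuclei differed between the libraries, outside the comparisons above. Summed members stood at 655 CPM (461 to 903) in 39 epilepsy nuclei and 120 CPM (61.8 to 209) in 36 control nuclei, from 37 and 12 UMIs. In these nuclei 12 oligodendrocyte markers summed to 1080 CPM in the epilepsy library and 209 CPM in the control library, and the median UMI counts were 745 and 3002. CA1 pyramidal markers stood at 2019 and 2503 CPM, and 8 microglia markers at 2851 and 1635 CPM, so the pyramidal markers of the control nuclei summed higher than their microglia markers. This class was not divided as the oligodendrocyte cluster was, though its pyramidal level is over 0.5 of the pyramidal class too. Of the member UMIs, 20 of 37 and 5 of 12 came from 3 epilepsy nuclei and 1 control nucleus with 5 or more each, and without them the levels were 314 and 70.7 CPM. The part of these nuclei and of depth was not tested.

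Mbp had ratios of opposite sign in 2 classes. The log2 ratio of epilepsy to control was 0.44 (0.24 to 0.63) in CA1 pyramidal-like nuclei and -0.37 (-0.54 to -0.21) in oligodendrocyte-like nuclei. The negative sign held across 10 alternatives, but some intervals included 0. The oligodendrocyte-like ratio was -0.07 (-0.34 to 0.19) with the same lowest UMI count and -0.03 (-0.18 to 0.12) with mixed nuclei kept. With at least 500 detected genes it was -0.23 (-0.49 to 0.03). The difference between the classes was not tested.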

How the results depend on the processing

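Alternatives with the same lowest UMI count, with mixed nuclei kept and without the low-UMI pyramidal cluster were chosen after seeing the data. The summed members' log2 ratio in oligodendrocyte-like nuclei, -0.13, was -0.0048 with at least 500 detected genes, 0.18 with the same lowest UMI count and 0.18 with mixed nuclei kept. The number of members past 1.5-fold there, 1 of 8, was 2 of 7, 2 of 7 and 2 of 8 under these. It was 2 of 9 with a minimum of 20 UMIs and 0 of 5 with 200. The share of all genes past 1.5-fold is given only for the main setting, so the counts under alternatives have no background. In pyramidal-like nuclei the ratio of 0.64 was 0.81 with equal weight per nucleus and 0.84 with thinning. Over all nuclei the ratio of 0.69 was -0.078 with at least 500 genes and -0.16 with the same lowest UMI count. The share of oligodendrocyte-like nuclei, 3.95 points higher in the epilepsy library (2.73 to 5.20), was -1.96 points and -3.37 points under the same 2 alternatives. The pyramidal percent of the oligodendrocyte level in the epilepsy library, 1.19, was 1.05 with at least 500 genes, 1.08 without the low-UMI cluster and 1.93 with mixed nuclei kept, and in the control library 0.699 was 1.40 with mixed nuclei kept. The causes were not tested. For single members, 84 of 90 ratios and 128 of 144 percentages stayed within counting error of the values reported. The alternatives reuse the same UMIs, and the 2 other resolutions gave identical ratios, so this tally was largely fixed in advance. The 6 ratios that moved, of Mbp, Mobp and Mog, came from at least 500 genes, the same lowest UMI count or mixed nuclei kept. Leaving out a replicate could not be done with 1 library per condition. No paired analysis was possible because each condition has 1 library. Depth limits Cnp and Mal most.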

Other observations

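Other small classes also held member UMIs. CA2/CA3 pyramidal-like nuclei had summed members at 112 CPM (68.7 to 174) in 52 epilepsy nuclei and 211 CPM (123 to 338) in 21 control nuclei, where 1 nucleus gave 11 of 17 UMIs. Dentate granule-like nuclei stood at 236 CPM (48.6 to 688) in 14 epilepsy nuclei, from 3 UMIs, and 149 CPM (109 to 200) in 153 control nuclei. Astrocyte-like nuclei stood at 144 CPM (39.3 to 370) in 31 epilepsy nuclei and 230 CPM (99.2 to 453) in 27 control nuclei, from 4 and 8 UMIs.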
